A study of Homo sapiens with 6 samples.

Results

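The 9 genes described here encode factors that make, process and degrade the mRNAs of the replication-dependent histones. They were chosen by symbol, namely NPAT, CASP8AP2, SLBP, LSM10, LSM11, CPSF3, SYMPK, CSTF2 and ERI1, and each was found once among the 60664 genes listed. Their transcripts were measured by polysome-seq, the sequencing of RNA from the sucrose gradient fractions that hold mRNAs carrying several ribosomes, in K562 cells, a human line from a chronic myelogenous leukemia with erythroid features. The groups were 3 samples of cells with intact RNH1 (RNH1 WT) and 3 samples in which RNH1, the gene of the ribonuclease inhibitor, had been disrupted with CRISPR/Cas9 (RNH1 KO). The labels give genotype as the only factor. The study's polysome protocol, stated without distinction of genotype, used cycloheximide in the wash and lysis of the cells. The study's methods call the 3 replicates of a genotype independent, without saying whether they were separate cultures or clones or whether the KO cells were 1 clone, so every p-value here refers to the variation among these 6 samples, part of which could be technical. A polysomal level holds both the amount of an mRNA and its ribosome loading, and fewer cells with a transcript and less of it per cell cannot be told apart in bulk RNA.

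Replication-dependent histone mRNAs are made in S phase and are the only known metazoan mRNAs without a poly(A) tail. NPAT, a substrate of cyclin E and CDK2, and CASP8AP2 (FLASH) act in the histone locus body, where NPAT drives transcription. The nascent transcript ends in a conserved stem-loop that is bound by SLBP, while the U7 snRNP, whose ring contains LSM10 and LSM11 in place of Sm proteins D1 and D2, pairs with the RNA downstream of it. FLASH bound to LSM11 recruits the cleavage complex, in which CPSF3 (CPSF73) is the endonuclease, SYMPK the scaffold and CSTF2 (CstF64) a subunit shared with the polyadenylation machinery. SLBP then stays with the mRNA into the cytoplasm and promotes its translation, and ERI1, a 3′ exonuclease that binds the same stem-loop, trims its end and takes part in its decay.

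The element that SLBP and ERI1 share is shown for the most abundant WT transcript of each histone class. Letters are the DNA strand of the transcript in GRCh38, 5′ to 3′, with the stem-loop in capitals and its flanks in lower case.
H1-2, chr6:26055740-26055764, minus strand: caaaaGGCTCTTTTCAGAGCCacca
H2AC11, chr6:27133510-27133535, plus strand: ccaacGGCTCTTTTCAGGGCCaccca
H2BC12, chr6:27146361-27146386, minus strand: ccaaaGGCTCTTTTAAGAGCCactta
H3C10, chr6:27810511-27810536, plus strand: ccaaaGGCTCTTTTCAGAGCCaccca
H4C12, chr6:27831174-27831198, minus strand: caaaaGGCCCTTTTTAGGGCCccca
The 16 letters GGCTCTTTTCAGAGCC were the run of that length found in the most transcripts of replication histone genes (36 of 64), and the consensus of 59 instances with up to 2 mismatches, with N where no base reached 90%, was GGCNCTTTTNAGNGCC. This motif, searched on both strands, was present in 60 of the 64 canonical histone transcripts (93.8%), in 8 of 19878 other protein-coding transcripts (0.0402%) and in 0 of the 9 factors' own. For the U7 snRNP, the first part of the U7 snRNA shows bases that pair with histone RNA, followed in capitals by the site on which the ring with LSM10 and LSM11 assembles.
RNU7-1, chr12:6943826-6943846, plus strand: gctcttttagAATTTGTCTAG
RNU7-1 itself had 1 read in KO replicate 1 and 0 in each of the other samples, so its level was not measured at this depth.

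Reads in genes numbered 34908202 to 46256928 per sample, and 1 read was worth 0.861 to 1.13 normalized counts, the unit of the deposited values. A count of 0 allows up to 3 reads, or 2.58 to 3.40 normalized counts, and this covers counting error only. The fewest reads of any of the 9 factors in a sample were 649. The samples correlated at r = 0.972 to 0.977 within WT, 0.991 to 0.993 within KO and 0.921 to 0.946 between genotypes (log2 values over all genes tested). Of 12 markers of K562 cells 11 had a mean of at least 10 normalized counts and HBE1 had 0 reads in all 6 samples. Of 16 markers of other cell types 10 reached this level, with KRT18 (13604 in WT, 20055 in KO), KRT8 (7950 and 10250.3), EPCAM (4155 and 3425) and LYZ (3090.4 and 2270) the highest, and PECAM1 at 2.89 ± 1.78 in WT and 417 ± 5.29 in KO (SD, n = 3). VWF, listed with PECAM1 as an endothelial marker, averaged 0.70 normalized counts in WT and 1.22 in KO. MS4A1 had 0 reads in all samples, and the part of such markers in the results below was not tested. RNH1 had 4566, 2857 and 1865 normalized counts in the WT samples, numbered 1, 2 and 3, and 1058, 1144 and 997 in the KO samples, which is 34.4% of the WT mean (log2 fold change −1.44, SE 0.26, limma adjusted p = 0.000338). The groups did not overlap, and RNH1 transcript remained in all KO samples.

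The KO cells were compared with WT cells to ask whether this machinery changed with loss of RNH1. SYMPK was 2.29-fold and CASP8AP2 1.80-fold higher in KO than in WT polysomes, and ERI1 fell to 58.1% of its WT level. SLBP, NPAT, LSM10, LSM11, CPSF3 and CSTF2 did not pass the test, which leaves the stem-loop binding protein, the proteins specific to the U7 snRNP and the endonuclease without a difference larger than the spread between replicates. In all, 3 of 9 factors passed (33.3%) at a limma adjusted p under 0.1, where 48.2% of all 16652 genes tested passed (24.1% lower, 24.1% higher). The share of factors was lower, but it rests on 9 genes and was not tested against the background. Without WT replicate 1, 5 of the 9 passed, where 52.5% of all genes did. After subtraction of a trend with transcript length, described below, 5 passed, where 48.7% of protein-coding genes did. The median log2 fold change of the 9 factors was 0.04 and that of all genes tested 0.03. With all 6 samples, SYMPK, CASP8AP2 and ERI1 had groups that did not overlap (2 with KO above WT, 1 with KO below). Of all genes tested this held for 51.1% (25.6% with KO above, 25.5% with KO below). On the recovered reads, edgeR called 48.2% of genes and DESeq2 37.2%, and both called these 3 factors and no other of the 9. With values scaled to the library total instead of the deposited size factors, the median of all genes rose by 0.32 on the log2 scale and the calls changed from 4012 lower and 4010 higher to 2419 lower and 6615 higher. SYMPK and CASP8AP2 stayed higher under that scaling, CSTF2 passed as higher, and ERI1 (−0.44, adjusted p = 0.1001) stayed lower without passing.

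**Figure D1:**
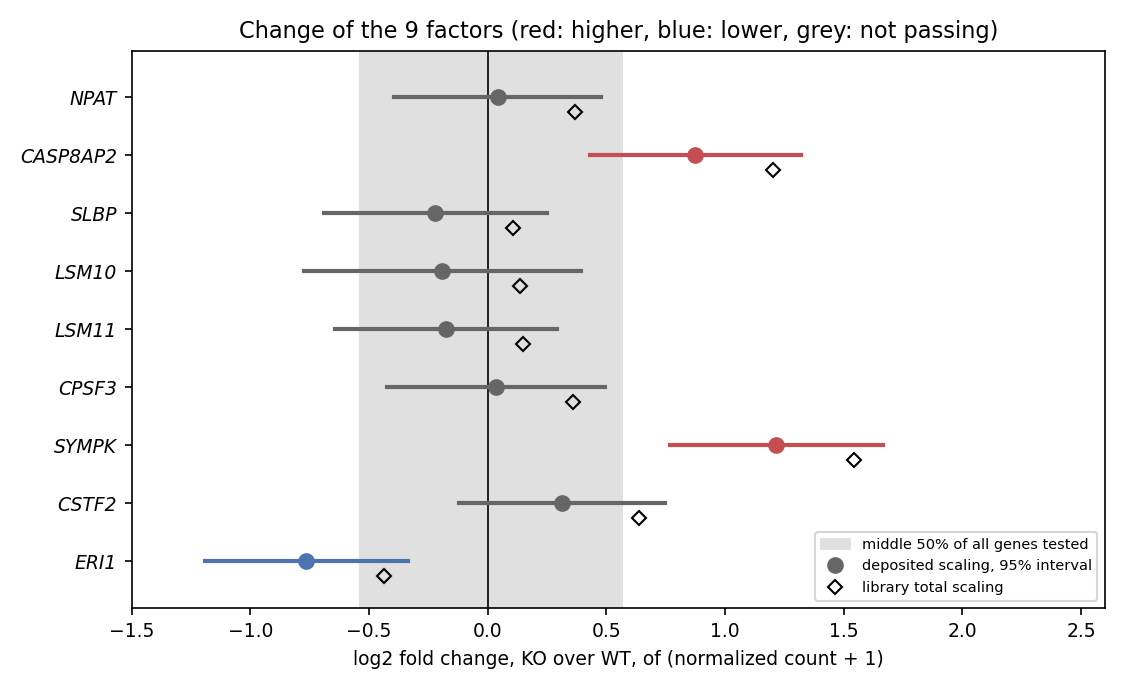
Log2 fold change of the 9 factors, KO over WT, on the scale of log2(normalized count + 1), as circles with 95% intervals from limma (red higher, blue lower, grey not passing) and, as open diamonds, under library total scaling; the grey band spans the middle 50% of all genes tested. SYMPK (1.22) and CASP8AP2 (0.87) lie above the band and ERI1 (−0.76) below it, and the other 6 circles lie inside it.

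**Figure D2:**
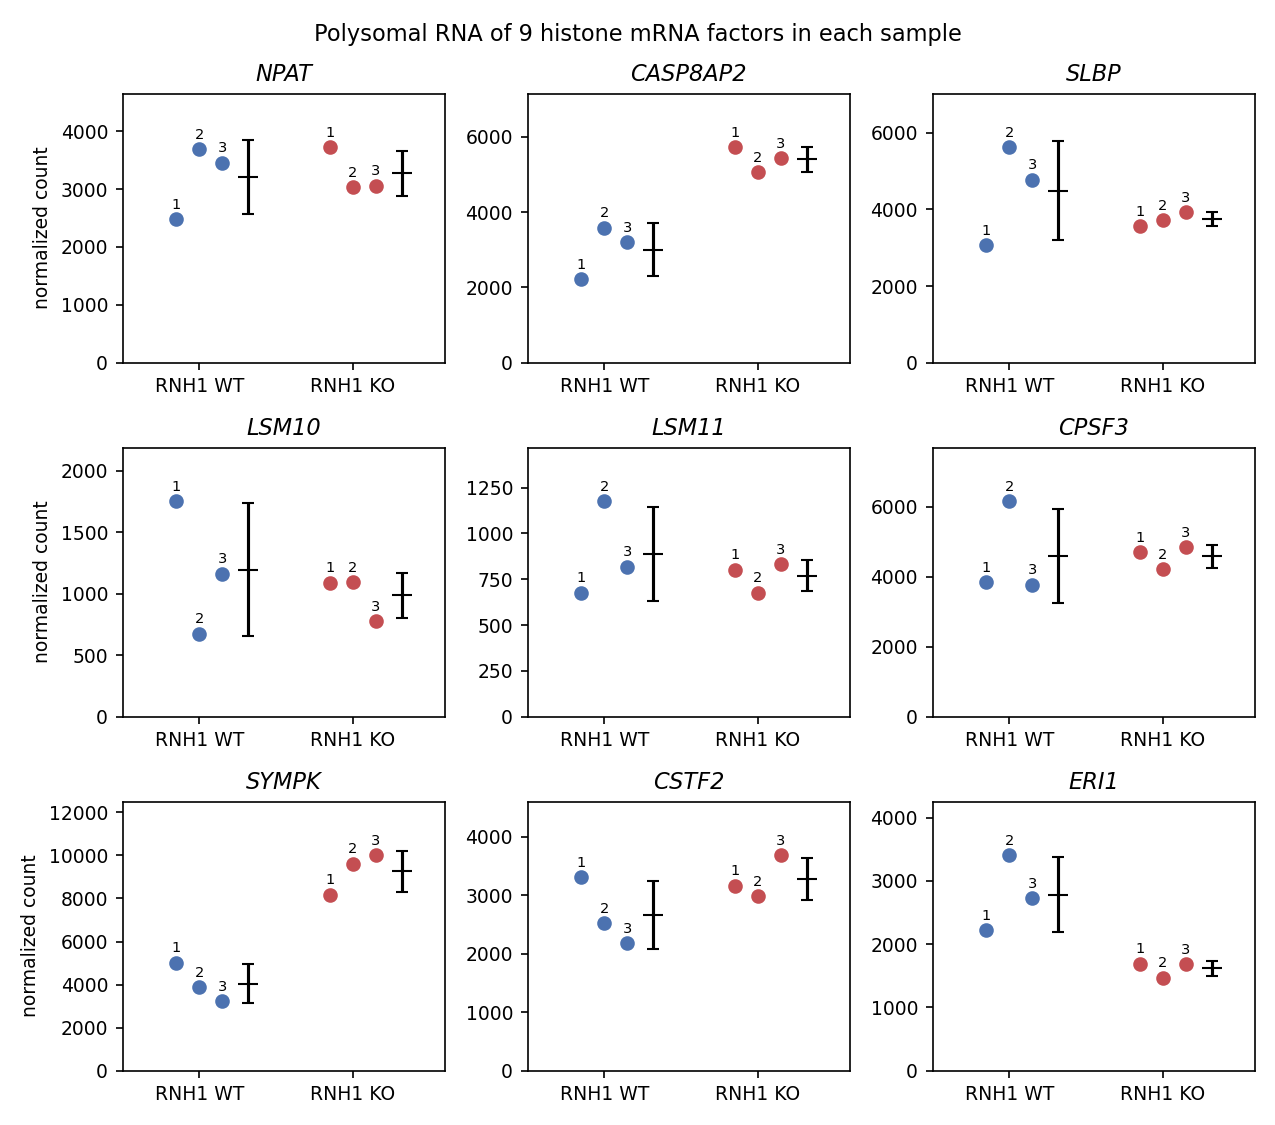
Normalized counts of the 9 factors in each sample (y axes start at 0), with the replicate number above each point and the mean ± SD of 3 samples to its right; blue is WT and red KO. The groups are apart for CASP8AP2, SYMPK and ERI1 and overlap for the other 6 factors, and the WT points are spread more widely than the KO points for 8 of the 9.

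The transcription factors of the histone locus body differed from each other. CASP8AP2 (ENSG00000118412, chromosome 6, 89829894 to 89874436, plus strand, 9 exons, 6088 nt) encodes FLASH, which is needed for both histone transcription and 3′ end cleavage. It had 2221, 3585 and 3205 normalized counts in WT, in the order of the replicate numbers here and below, and 5722, 5063 and 5436 in KO. Every KO sample was above every WT sample, and the log2 fold change was 0.87 (SE 0.21, 95% interval 0.43 to 1.32, adjusted p = 0.00357). NPAT (ENSG00000149308, chromosome 11, 108157215 to 108222638, minus strand, 18 exons, 6113 nt), the coactivator of histone genes, had 2476, 3694 and 3454 in WT and 3722, 3029 and 3057 in KO. WT replicate 1 was the lowest sample and the groups overlapped (log2 fold change 0.04, 95% interval −0.39 to 0.48, adjusted p = 0.889). The interval does not exclude a change of about the size that either bound gives. Within each sample, the log2 ratio of CASP8AP2 to NPAT was −0.16, −0.04 and −0.11 in WT and 0.62, 0.74 and 0.83 in KO. This ratio does not depend on the scaling of the library, and it rose by 0.83 in KO without overlap, with an exact two-sided permutation p = 0.1, the smallest that 3 samples against 3 can give. The Benjamini-Hochberg adjusted value over the 5 such ratios computed was 0.125.

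The stem-loop binding protein was not called. SLBP (ENSG00000163950, chromosome 4, 1692731 to 1712344, minus strand, 8 exons, 1810 nt) had 3073, 5621 and 4774 normalized counts in WT and 3563, 3724 and 3929 in KO. The KO samples lay between the lowest and the intermediate WT sample, with a CV of 4.90% in KO and 28.9% in WT. The log2 fold change was −0.22 (SE 0.22, 95% interval −0.69 to 0.25, adjusted p = 0.453). Without WT replicate 1, the lowest of the 6 samples, SLBP passed as lower (−0.47, adjusted p = 0.0401), and under library total scaling its sign turned (0.11), so the result rests on 1 sample and on the scaling. Among 11002 other genes with a symbol and averaging 100 normalized counts or more, those whose log2 values followed SLBP most closely over the 6 samples were PPP2R5A (Pearson r = 0.994), a regulatory subunit of protein phosphatase 2A, UBE2J1 (r = 0.993), a ubiquitin-conjugating enzyme of the endoplasmic reticulum, and PRKAR2B (r = 0.993), a regulatory subunit of protein kinase A. They share the 6 libraries and the low value in WT replicate 1. For NPAT they were PTPDC1 (r = 0.994), CPEB1 (r = 0.989) and EVI2B (r = 0.985).

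The proteins specific to the U7 snRNP had the fewest normalized counts of the 9 factors, and neither passed. LSM10 (ENSG00000181817, chromosome 1, 36391238 to 36397908, minus strand, 2 exons, 860 nt), the shortest transcript of the 9, had 1752, 675 and 1163 normalized counts in WT and 1090, 1093 and 776 in KO. Its highest and lowest samples were both WT samples, its WT CV of 45.0% was the largest of the 9 factors, and its log2 fold change was −0.19 (95% interval −0.77 to 0.39, adjusted p = 0.609). Without WT replicate 1 it was 0.14 and without WT replicate 2 it passed as lower (−0.55, adjusted p = 0.0700). LSM11 (ENSG00000155858, chromosome 5, 157743712 to 157760709, plus strand, 4 exons, 6567 nt) had 677, 1176 and 818 in WT and 803, 676 and 832 in KO. WT replicate 2 stood above the other 5 samples, which spanned 676 to 832, and the log2 fold change was −0.18 (95% interval −0.64 to 0.29, adjusted p = 0.554). Under library total scaling LSM10 (0.13) and LSM11 (0.15) both turned sign without passing. The proteins sit side by side in 1 ring, but their transcripts went in opposite directions between WT samples. The log2 ratio of LSM10 to LSM11 was 1.37, −0.80 and 0.51 in WT and 0.44, 0.69 and −0.10 in KO. Its means differed by −0.02 between genotypes (exact permutation p = 1, n = 3 against 3), and by −0.59 to 0.49 with 1 sample left out. The 2 transcripts differ in length (860 and 6567 nt). After subtraction of the length trend described below, LSM10 was at 0.69 and LSM11 at −0.39.

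Among the cleavage factors the scaffold rose and the endonuclease did not pass the test. SYMPK (ENSG00000125755, chromosome 19, 45815410 to 45863194, minus strand, 27 exons, 4077 nt) had 5015, 3883 and 3214 normalized counts in WT and 8174, 9610 and 10003 in KO. The lowest KO sample was above the highest WT sample, and the log2 fold change of 1.22 (SE 0.21, 95% interval 0.77 to 1.67, adjusted p = 0.000298) was the largest of the 9 factors, above that of 91.0% of all genes tested. Its exons overlap those of an opposite-strand lncRNA by 41 nt, and that lncRNA had 0 reads. CPSF3 (ENSG00000119203, chromosome 2, 9423651 to 9473101, plus strand, 18 exons, 2259 nt) had 3848, 6153 and 3766 in WT and 4702, 4212 and 4846 in KO. WT replicate 2 was high, the 3 KO samples lay between it and the other two WT samples, and the log2 fold change was 0.04 (95% interval −0.42 to 0.50, adjusted p = 0.911). CSTF2 (ENSG00000101811, chromosome X, 100820391 to 100841520, plus strand, 14 exons, 2570 nt) had 3310, 2524 and 2176 in WT and 3168, 2982 and 3684 in KO. WT replicate 1 was within the KO range, and the log2 fold change of 0.31 (95% interval −0.12 to 0.75) did not pass (adjusted p = 0.240), but it did without that sample (0.48, adjusted p = 0.0402) and under library total scaling (0.64, adjusted p = 0.0149). CSTF2T, a close retrotransposed copy of CSTF2 that could take some of its reads, had a log2 fold change of 0.18 (adjusted p = 0.465).

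The ratio of scaffold to partner changed within the samples. The log2 ratio of SYMPK to CSTF2 was 0.60, 0.62 and 0.56 in WT, the narrowest spread of the 5 ratios, and 1.37, 1.69 and 1.44 in KO, a rise of 0.90. The log2 ratio of SYMPK to CPSF3 was 0.38, −0.66 and −0.23 in WT and 0.80, 1.19 and 1.05 in KO, a rise of 1.18. In both ratios the groups did not overlap and the exact permutation p was 0.1, the smallest possible with n = 3 against 3, or 0.125 after adjustment over the 5 ratios.

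ERI1, the exonuclease of the stem-loop, was the factor that fell. ERI1 (ENSG00000104626, chromosome 8, 9002147 to 9116746, plus strand, 7 exons, 4521 nt) had 2215, 3402 and 2727 normalized counts in WT and 1689, 1471 and 1684 in KO. The highest KO sample was below the lowest WT sample, and the log2 fold change was −0.76 (SE 0.20, 95% interval −1.19 to −0.34, adjusted p = 0.00661). The gap was smallest against WT replicate 1. Relative to SLBP in the same sample, the log2 ratio of ERI1 was −0.47, −0.72 and −0.81 in WT and −1.08, −1.34 and −1.22 in KO. It fell by 0.54 without overlap (exact permutation p = 0.1, the smallest possible with n = 3 against 3, adjusted 0.125), and this value is free of the scaling that ended the call of ERI1 alone.

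The order of the factors changed around SYMPK. Per kilobase of canonical transcript, the mean level in WT (normalized counts per kb, ± SD, n = 3) was highest for SLBP (2480 ± 717), followed by CPSF3 (2031 ± 600), LSM10 (1391 ± 627), CSTF2 (1039 ± 226), SYMPK (990 ± 223), ERI1 (615 ± 132), NPAT (525 ± 105), CASP8AP2 (493 ± 116) and LSM11 (136 ± 39.1). In this order only SYMPK and ERI1, and CASP8AP2 and LSM11, were apart by more than the sum of their SDs, that is 2 of 8 neighbouring pairs. In KO the order was SYMPK (2272 ± 236), SLBP (2065 ± 101), CPSF3 (2030 ± 147), CSTF2 (1276 ± 142), LSM10 (1147 ± 212), CASP8AP2 (888 ± 54.4), NPAT (535 ± 64.1), ERI1 (357 ± 27.5) and LSM11 (117 ± 12.6). Here 4 of 8 neighbouring pairs were apart by that measure, with gaps below CPSF3, CASP8AP2, NPAT and ERI1. The highest factor was 18.3 times the lowest in WT and 19.4 times in KO. LSM11 was the lowest in both genotypes and far below LSM10, whose protein neighbours it in the U7 ring.

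The spread between replicates was wider in WT for most factors. The CV of the 9 factors ranged from 20.1% to 45.0% in WT (median 23.4%) and from 4.90% to 18.5% in KO (median 10.4%). All 11394 genes averaging 100 normalized counts or more had median CVs of 22.7% and 9.24% in the same order. WT replicate 1 was the lowest WT sample for 5 factors and the highest for 3, namely LSM10, SYMPK and CSTF2. Transcript length moved with this difference, since the median log2 ratio of WT replicate 1 to WT replicate 2 went from 0.33 in the shortest to −0.40 in the longest of 5 equal groups of protein-coding genes.

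Transcript length also moved with the difference between genotypes. The median log2 fold change, KO over WT, of the 5 length groups was −0.51, −0.10, 0.06, 0.13 and 0.31 from short to long. SYMPK lay at percentile 94.8 and ERI1 at percentile 10.8 of the group from 3901 to 5688 nt, and CASP8AP2 at percentile 80.3 of the group from 5689 nt up. LSM10 was at percentile 66.6 of the shortest group, and LSM11 at percentile 24.8 and NPAT at percentile 34.9 of the longest. After subtraction of the trend with length, SYMPK (1.16), CASP8AP2 (0.69) and ERI1 (−0.86) passed as before, LSM10 passed as higher (0.69, adjusted p = 0.0381) and LSM11 as lower (−0.39, adjusted p = 0.0989), so that 5 of 9 factors passed where 48.7% of 11959 protein-coding genes did. SLBP then stood at 0.02. Whether length or a property that goes with it takes part in these differences was not tested.

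**Figure D3:**
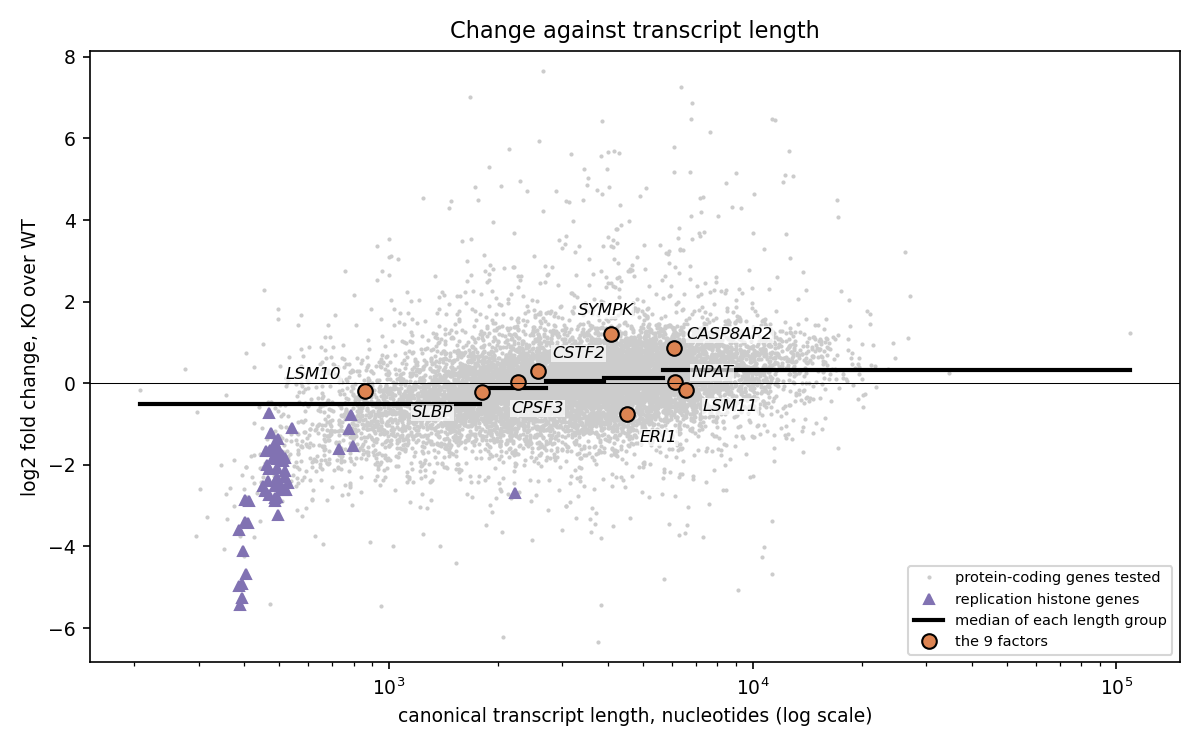
Log2 fold change, KO over WT, against canonical transcript length on a log axis, for protein-coding genes tested (grey), replication histone genes (purple triangles) and the 9 factors (orange); black lines are the medians of 5 length groups. The medians go from −0.51 to 0.31, SYMPK and CASP8AP2 lie above and ERI1 below the median of its group, and the histones, apart from H2BC21, lie at the short end.

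The other genes of the pathway changed in both directions. Of 85 genes in 5 lists of histone transcription, 3′ end processing, polyadenylation, partners of SLBP and histone mRNA decay, 19 were lower, 17 higher and 49 did not pass (42.4% called against 48.2% of all genes tested), with a median log2 fold change of 0.03. Under library total scaling each of these lists had more genes higher than lower.

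Among 9 further genes of histone transcription 2 were lower and 3 higher (median 0.14). CCNE2, a cyclin E that with CDK2 phosphorylates NPAT, fell by 1.03 on the log2 scale (969 ± 180 to 469 ± 56.0 normalized counts, n = 3 each, limma adjusted p = 0.00106), and CCNE1 fell by 0.54. TRRAP, the large adaptor of histone acetyltransferases that NPAT recruits, rose by 1.37 (5064 ± 1045 to 12933 ± 1771, adjusted p = 0.000124), GON4L by 0.72 and POU2F1 (Oct-1), which acts at H2B promoters, by 0.57. HINFP, which binds H4 promoters, was at −0.26 and CDK2 at 0.14, and neither passed. Without KO replicate 1 or without KO replicate 3 the list had 3 called genes.

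Among 15 further genes of histone 3′ end processing 4 were lower and 1 higher (median −0.03). The Sm proteins that complete the U7 ring were divided. SNRPG fell by 3.05 (36006 ± 14922 to 4107 ± 715, adjusted p = 3.93e-07), SNRPF by 2.29 and SNRPE by 2.09, while SNRPB (−0.03) and SNRPD3 (−0.22) did not pass. SRRT (ARS2), which links the cap-binding complex to histone 3′ end formation, rose by 0.70, and NCBP2, the small cap-binding subunit, fell by 0.45. CPSF2 (CPSF100), the third protein of the core cleavage complex beside CPSF3 and SYMPK, was at 0.33 (adjusted p = 0.255), and none of the 4 NELF subunits passed (0.40 at most for NELFB). The number called was 8 without WT replicate 1, 3 without KO replicate 3 and 10 (3 lower, 7 higher) under library total scaling.

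Of 15 genes of polyadenylation, the route that CSTF2, CPSF3 and SYMPK also serve, 1 was lower and 3 were higher (median 0.27). NUDT21, the small subunit of cleavage factor I, fell by 1.08 (adjusted p = 0.000499), and PABPN1, the nuclear poly(A)-binding protein, rose by 0.91 (adjusted p = 0.00239). CPSF1 and WDR33, subunits that with CPSF3 form CPSF, passed as higher by 0.60 and 0.45 (limma adjusted p = 0.0720 and 0.0724). The groups overlapped for CPSF1, with WT replicate 1 (7954) above the KO samples (6855, 7706 and 7518). They did not for WDR33. With edgeR and with DESeq2, 3 genes of this list were called. CSTF1 (−0.24) and CSTF3 (0.01), the partners of CSTF2 in CstF, did not pass. Without any 1 of the KO samples 2 genes of this list passed, and under library total scaling 9 did.

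Of 13 genes whose products act with SLBP, in its translation function or its turnover, 1 was lower and 3 were higher (median −0.05). EIF4G1, the initiation factor scaffold to which SLBP is bridged, rose by 1.13 (11929 ± 3059 to 25708 ± 4200, adjusted p = 0.00123), CTIF by 1.01, and CCNF (cyclin F), which targets SLBP for degradation in G2, by 0.58 (adjusted p = 0.0423). CDK1, which phosphorylates SLBP before its degradation at the end of S phase, fell by 1.05 (adjusted p = 0.00199). MIF4GD (SLIP1), the bridge between SLBP and EIF4G1, was at −0.05 and did not pass. Without WT replicate 1 or under library total scaling 7 genes of this list passed.

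Of 33 further genes of histone mRNA decay, the pathway in which ERI1 acts, 11 were lower and 7 higher (median −0.10). The LSM1 to LSM7 ring, which binds the oligouridylated tail of histone mRNAs and associates with ERI1, had 6 of 7 genes lower (median −1.74), namely LSM3 (−2.29), LSM6 (−2.02), LSM5 (−1.76), LSM7 (−1.74), LSM1 (−1.5) and LSM2 (−1.42). LSM4 (−0.43, adjusted p = 0.108) did not pass. Of the 10 exosome genes EXOSC1 to EXOSC10, 5 were lower and 5 did not pass. The share called was 85.7% in the LSM1 to LSM7 ring and 50.0% in the exosome, where 48.2% of all genes tested were called (24.1% lower). UPF1, the helicase that with SLBP starts histone mRNA decay, rose by 1.12 (adjusted p = 0.00128), as did SMG1 (0.89), the uridylyltransferase TUT7 (0.75), the uridine-reading exonuclease DIS3L2 (0.74) and the decapping factors EDC4 (0.98), PATL1 (0.83) and EDC3 (0.63). The division into rings and subunits was made after the values were seen. In the shortest length group (median −0.51) are SNRPF (452 nt), LSM7 (491 nt) and SNRPG (594 nt). LSM2 (858 nt), LSM1 (906 nt) and SNRPE (1560 nt) are in it too. LSM5 (2214 nt) and LSM6 (2226 nt) are in the group with a median of −0.10 and LSM3 (3359 nt) in that with a median of 0.06. The lengths are those of the canonical transcripts, and a part of length in the values of these genes was not tested. Over the whole decay list the excess of lower genes did not hold under other settings, with 9 lower and 14 higher under library total scaling and 6 lower and 7 higher after subtraction of the length trend.

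**Figure D4:**
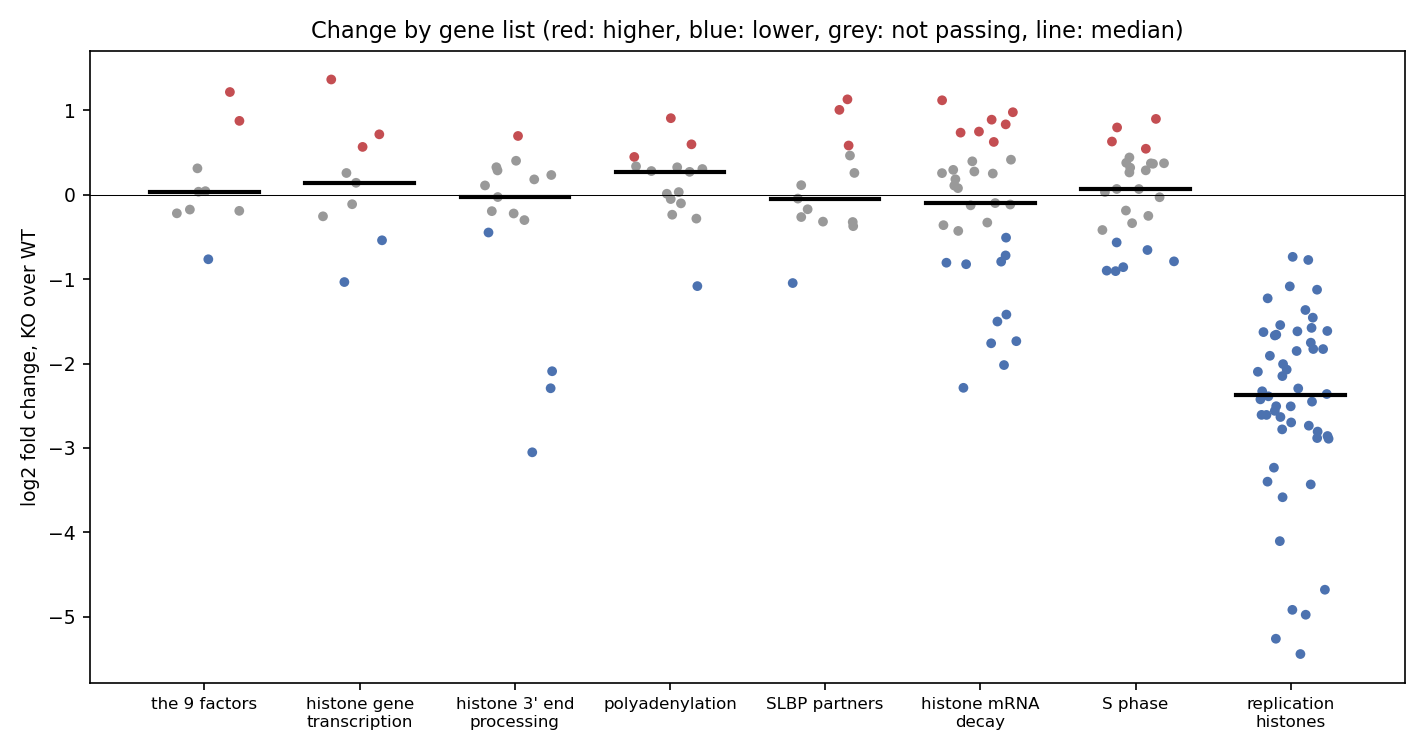
Log2 fold change, KO over WT, of each gene tested in the 9 factors, 6 related lists and the replication histone genes (red higher, blue lower, grey not passing), with the median of each list as a line. The list medians lie between −0.10 and 0.27 and that of the histone genes at −2.38.

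The histone mRNAs that these factors serve were lower in KO. Of 64 replication histone genes 12 were under the minimum level and 52 were tested. Of these, 52 of 52 fell (median log2 fold change −2.38), where 24.1% of all genes tested were lower. After subtraction of the length trend 34 passed, 32 as lower and 2 as higher, where 48.7% of 11959 protein-coding genes passed in either direction. Those that fell most were H4C11 (−5.44), H4C15 (−5.26), H4C12 (−4.98) and H4C14 (−4.92), all H4 genes, whose near-identical copies may share reads. Their share of reads was 11.7%, 5.11% and 9.29% in WT and 1.70%, 1.51% and 1.35% in KO, without overlap (8.70 ± 3.33% against 1.52 ± 0.17%, SD, n = 3 each, exact permutation p = 0.1, the smallest possible). The share of short noncoding RNA moved with it (3.32%, 0.974% and 3.44% in WT, 0.585% to 0.656% in KO). Within WT, SLBP and ERI1 were both highest in replicate 2, where the histone share was lowest, and both lowest in replicate 1, where it was highest. NPAT, CASP8AP2 and LSM11 had the same order of WT samples, and transcript length moved with the difference between replicates 1 and 2. A link of any factor with the histone share was not tested. Within KO, SLBP, ERI1 and the histone share were each in a narrow range. The 51 tested histone genes whose transcripts hold the stem-loop motif all fell (median −2.36), as did the 1 without these letters (−3.23).

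**Figure D5:**
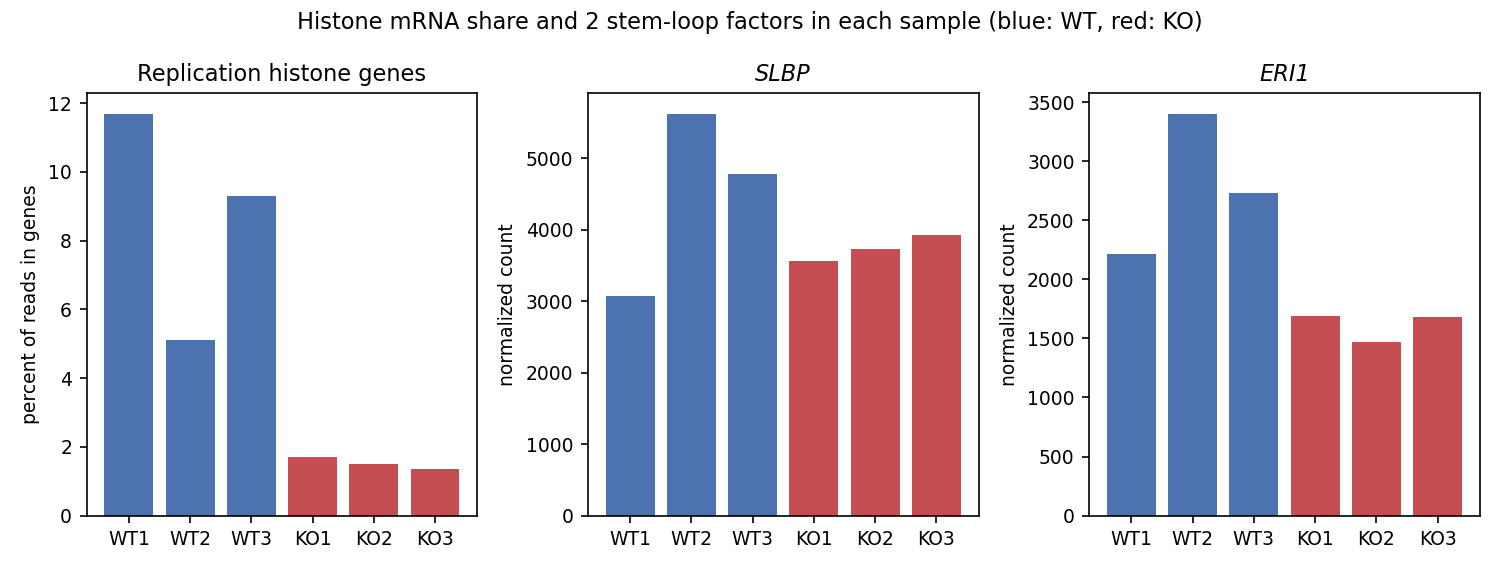
Percent of reads in replication histone genes (left) and normalized counts of SLBP and ERI1 in each of the 3 WT (blue) and 3 KO (red) samples, with bars from 0. The histone share is 5.11% to 11.7% in WT and 1.35% to 1.70% in KO, the ERI1 bars of KO are all below those of WT, and the SLBP bars of KO lie within the WT range.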

How the data were processed

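Polysomal RNA from K562 cells was analyzed, 3 samples each of RNH1 WT and RNH1 KO. The authors prepared stranded total RNA libraries, aligned reads to GRCh38 with HISAT2 and summed them over Ensembl genes with featureCounts. Versions in the submitters' processing notes are 2.2.1 for HISAT2, 2.0.1 for featureCounts, 1.36.0 for DESeq2 and 0.11.9 for FastQC, and the study's methods state others. The strand option used for counting was not found in the labels or methods. The deposited signal of a sample is its gene counts, scaled by the authors with a DESeq2 size factor. Dividing it by what 1 read is worth gave whole numbers for 100% of values in each sample, within 1e-06, and these were taken as reads. The authors' deposited means per genotype, log2 fold changes, test statistic (a score) and p-values were not used. The number of unmapped sample columns was 0, as was that of rows naming no gene.

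Genes averaging at least 10 normalized counts (16652) were fitted with limma 3.58.1 (R 4.3.3), using log2(value + 1), trend and robust options and genotype alone, and were called at a Benjamini-Hochberg adjusted p under 0.1. Fold changes are on that scale. Single values and within-sample ratios were compared by exact two-sided permutation tests. The reads so recovered were tested by the quasi-likelihood method of edgeR 4.0.16, which called 8023 genes, and with version 1.42.0 of DESeq2. Other alternatives were pseudocounts of 0.5 and 5, no filter, a mean of at least 100, and upper-quartile and library total scaling. Further ones were leaving out each sample, a replicate block, and subtraction of a trend with transcript length (protein-coding genes), alone and with the block. For the trend, a lowess (span 0.3) on log2 length was fitted within each sample to the deviation of genes from their mean over the 6 samples. It was subtracted before the limma fit, so it also removes length differences between replicates. Leaving samples out of the histone share and the ratios was added after seeing the data. The fits were tested on simulated data. Lengths, coordinates and sequences come from GENCODE 44 canonical transcripts, annotated on the authors' build GRCh38.

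The 9 genes and all lists were chosen with earlier results of these data known. Genes named are the 9, RNH1, RNU7-1, the called genes with the largest absolute changes in each list, 4 at most, and the 3 genes most like SLBP and NPAT in profile. Any further gene was picked with its value in view. The value of 1 gene that the rule names is not reported here. Software was Python 3.11.15 with scipy 1.17.1, pandas 2.3.3, numpy 2.4.6 and matplotlib 3.10.9.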

Additional observations from a re-analysis of the deposited data

How the results depend on the processing

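SYMPK (1.06 to 1.54) and CASP8AP2 (0.67 to 1.20) were called under all 17 alternatives, and ERI1 under 16 (−0.92 to −0.44). Library total scaling gave SLBP 0.11, LSM10 0.13, LSM11 0.15, ERI1 −0.44 and CSTF2 0.64, with 10 genes called in histone 3′ end processing, 9 in polyadenylation and 7 among SLBP partners; its calls were 73.2% higher against 50.0%. Subtraction of the length trend gave SLBP 0.024, NPAT −0.15, LSM10 0.69 and LSM11 −0.39, with 5 of the 9 factors, 3 transcription genes, 2 polyadenylation genes and 34 histone genes called (33 histone and 2 transcription genes with the block, where LSM11 no longer passed, 4 of the 9 factors did, 32 histone genes were lower and 1 higher, SLBP was 0.024, NPAT −0.15, LSM10 0.69 and 4845 genes were called in all). CPSF3 was −0.012 with edgeR and −0.000855 with DESeq2. DESeq2 tested 22295 genes and called 8293 (37.2%). With 1 sample left out, the number of factors called was 3 to 5 (5 without WT replicate 1, where 52.5% of all genes were called; 35.2% to 53.2% over the 6 samples left out), SLBP was −0.47 to −0.036, NPAT −0.13 to 0.15, LSM10 −0.55 to 0.14, LSM11 −0.35 to 0.043, CPSF3 −0.088 to 0.27 and CSTF2 0.18 to 0.48, and the difference of LSM10 over LSM11 −0.59 to 0.49. The lists then had 3 to 7 (transcription), 3 to 8 (3′ end processing), 2 to 6 (polyadenylation) and 3 to 7 (SLBP partners) genes called. Same-numbered samples did not deviate together (r = −0.163, −0.192 and −0.268). With 3 samples a group, these correlations cannot show whether samples of the same number were handled together. With the replicate block 6553 genes were called in place of 8022, 3 in transcription, 2 in polyadenylation, and the same number of the 9 factors (3). Why the values moved was not tested. With 3 samples a group and WT CVs above 20%, the 95% intervals of the factors spanned 0.85 to 1.17 on the log2 scale.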

Other observations

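Called genes were counted in 2 lists of cell cycle genes, where 48.2% of all genes tested were called. A part of the cell cycle in the histone values was not tested. Of 26 genes of DNA replication and S phase 6 were lower, 4 higher and 16 did not pass (38.5% called, median log2 fold change 0.07). GINS2, a subunit of the replicative helicase, fell by 0.91 (8251 ± 97.9 to 4407 ± 175 normalized counts, SD, n = 3 each, limma adjusted p = 0.00126), and ASF1A, a histone chaperone, by 0.90. CHAF1A, the large subunit of chromatin assembly factor 1, which deposits new histones behind the fork, rose by 0.90 (adjusted p = 0.00286). NASP (0.26), a chaperone of H3 and H4, and ASF1B (−0.19) did not pass. Under library total scaling 3 genes of this list were lower and 12 higher. Without WT replicate 1, 14 genes of it passed (52.5% of all genes), and without WT replicate 2, 15 did (53.2%).

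Of 12 genes of G2 and M phase 1 was lower, 5 were higher and 6 did not pass (50.0% called, median 0.27). MKI67 rose from 8665 ± 3802 to 19476 ± 3113 (adjusted p = 0.00152), CENPF by 0.76 and PLK1 by 0.59, while BIRC5 fell by 0.77 (adjusted p = 0.00924).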
